A study of Homo sapiens with 8 samples.

Results

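The genes described here were raised at least 2-fold by lapatinib and brought back down at least 2-fold when JQ1 was added to it, in each of 2 HER2-positive breast cancer lines, SKBR-3 and BT474m1. They were chosen on the log2(value + 1) scale: lapatinib minus DMSO was 1 or more, both drugs minus lapatinib was -1 or less, and the value in lapatinib was 50 or more, each in both lines. The rule took 45 of the 14429 genes tested, or 0.312%. Since the measured values chose these genes, their rise with lapatinib and their fall on adding JQ1 are given below as a description, and the library treated with JQ1 alone, which the rule did not read, carries the comparison.

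The study looked for transcriptional changes and factors that take part when HER2-positive cells adapt to inhibition of HER2, with and without a blocker of BET bromodomain proteins. Cells of both lines were kept for 48 h in DMSO, in lapatinib at 300 nM, in JQ1 at 300 nM or in the combination, and each of the 8 groups held 1 library of polyA RNA. SKBR-3 lacks the estrogen and progesterone receptors and BT474m1 has both, and each line is 1 model of the disease. All cells were grown in RPMI with serum. Values are read counts per gene that the authors scaled so that the upper quartile of each library lies at about 1000, and they are not corrected for gene length, so that levels are compared within a gene and not between genes. With 1 library per group there was no spread between cultures to test against, and no p-value is given for any difference. The intervals printed are 95% exact Clopper-Pearson intervals of the log2 change, computed from the recovered reads without the added 1. Their width reflects the counting of reads alone, and reads amplified by PCR without identifiers may come from the same molecule.

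Lapatinib is an inhibitor of the tyrosine kinases EGFR and HER2, and cells held under it lower MAPK and PI3K signalling and raise a broad set of genes within days. JQ1 occupies the acetyl-lysine pockets of the BET bromodomain proteins, which bind acetylated histones at promoters and enhancers and help RNA polymerase to leave the promoter. Genes that depend on strong enhancers are among those most lowered by such drugs.

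The libraries held between 21420113 and 34112379 reads on genes. The luminal keratins KRT8, KRT18 and KRT19 were at 10734 or above in all 8 libraries, and ERBB2, the gene of HER2, was at 94678 or above. CDH1 lay between 2.58 and 15.1 in SKBR-3 and at 19413 or above in BT474m1. The leukocyte markers PTPRC, CD3E and LST1 did not exceed 3.38 in any library. The median of 10 genes of MAPK output changed by -1.54 (SKBR-3) and -2.79 (BT474m1) log2 units with lapatinib, and that of 11 proliferation genes by -3.52 and -4.44. A change in these bulk libraries could reflect fewer cells of a state or less RNA per cell, which cannot be told apart.

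In lapatinib the median change of the 45 genes was 1.71 log2 units for SKBR-3 and 1.52 for BT474m1, and on adding JQ1 it was -2.19 and -2.02. These sizes are set in part by the rule, against backgrounds of 11.1% (SKBR-3) and 14% (BT474m1) of all genes raised at least 2-fold by lapatinib, and of 16.2% and 12.5% lowered at least 2-fold when JQ1 was added. In all, 634 genes (4.39%) rose at least 2-fold with lapatinib in both lines, and 285 of them reached 50 in lapatinib in both. The 45 genes are thus the part of those 285 that adding JQ1 lowered at least 2-fold in each line. The lapatinib library enters both steps of the rule, so that a chance high value there would favour both.

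In DMSO the median value of the 45 genes was 55.8 in SKBR-3 and 132 in BT474m1. In lapatinib their medians were 221 and 419, in JQ1 14.2 and 30.9, and with both drugs 35.1 and 65.9. The libraries thus ran in the order lapatinib, DMSO, both drugs, JQ1 by these medians in each line, where the rule itself set lapatinib above DMSO and above both drugs.

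**Figure D1:**
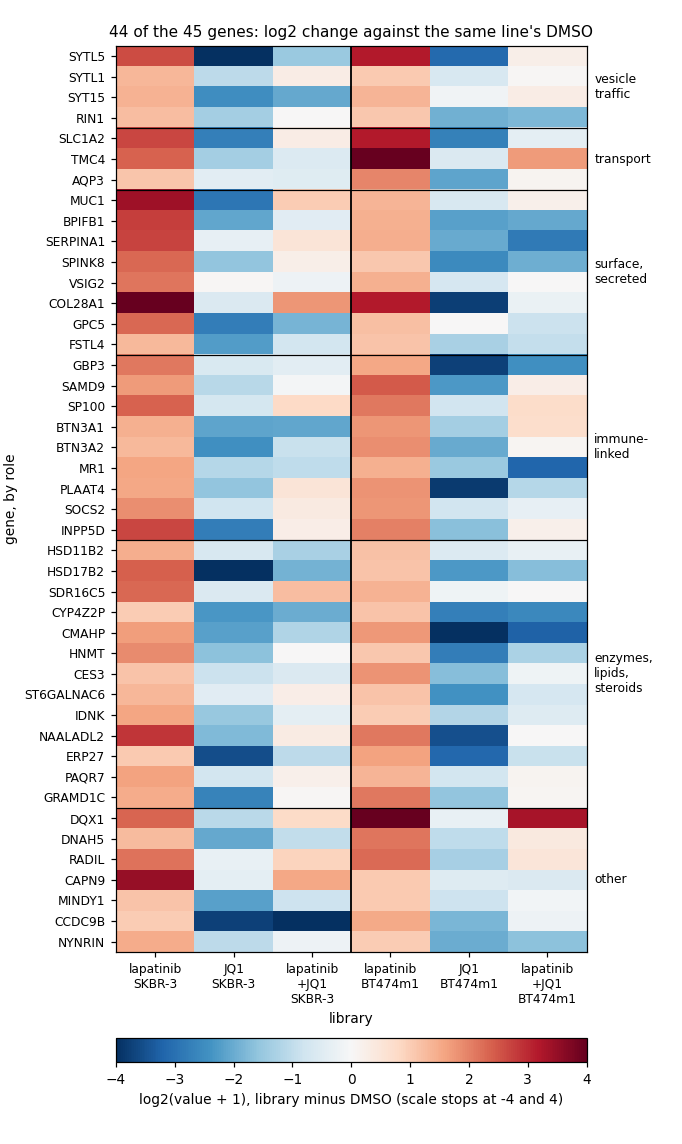
Log2(value + 1) of each drug library minus the DMSO library of the same line, for 44 of the 45 genes in rows sorted by role and the 6 drug libraries in columns. Red is above DMSO and blue below it. The lapatinib columns are red throughout by the rule, the JQ1 columns are blue in all but VSIG2 in SKBR-3 and GPC5 in BT474m1, and the columns of both drugs are mixed.

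JQ1 alone lowered most of these genes below their untreated level. Of the 45 genes, 44 lay below DMSO in each line, against 56.5% (SKBR-3) and 54.4% (BT474m1) of all genes tested. A fall of 2-fold or more was measured in 31 of 45 in SKBR-3 and in 31 of 45 in BT474m1, or 68.9%, against 11.8% of all genes tested in each line. Among all genes at 50 or above in lapatinib, the share was 7.42% in SKBR-3 and 8.45% in BT474m1. The median change was -1.57 in SKBR-3 and -1.71 in BT474m1, beside -0.08 and -0.06 over all genes tested. A fall of at least 4-fold was measured in 19 genes in SKBR-3, against 3.53% of all genes tested, and in 18 in BT474m1, against 3.74%.

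The JQ1 library was the lowest of the 4 in 41 of 45 genes in each line, against 25.1% of all genes tested in SKBR-3 and 27.5% in BT474m1. These shares are not comparable, since the rule keeps lapatinib from being the lowest in a member and read 3 of the 4 libraries, and nothing is read from them. A fall of at least 2-fold with JQ1 alone was found in both lines for 24 genes, against 5.31% of all genes tested. In SKBR-3 but not BT474m1 it was found for TMC4, DQX1, GPC5, MUC1, SYT15, MINDY1 and SYTL1. In BT474m1 but not SKBR-3 it was found for COL28A1, GBP3, SERPINA1, RADIL, CES3, AQP3 and ST6GALNAC6. Several of the absent falls rest on few reads. DQX1 went from 3 reads in DMSO to 2 in JQ1 in BT474m1 (interval -4.13 to 2.58). In SKBR-3, COL28A1 went from 6 to 4 (interval -3.01 to 1.34) and RADIL from 16 to 14 (interval -1.49 to 0.78). Each of these intervals includes a 2-fold fall. The differences between the lines were not tested.

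The 7 genes that JQ1 alone lowered less than 2-fold in both lines were VSIG2, SP100, SOCS2, PAQR7, HSD11B2, SDR16C5 and CAPN9. Only 1 gene in each line lay above DMSO in JQ1. VSIG2, an immunoglobulin-domain surface protein, was at 13.6 in DMSO and 14.2 in JQ1 in SKBR-3, a change of 0.06 (interval -0.89 to 1.03), and GPC5, a glypican, was at 28.3 and 29 in BT474m1, a change of 0.03 (interval -0.51 to 0.58). Both intervals span no change.

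**Figure D2:**
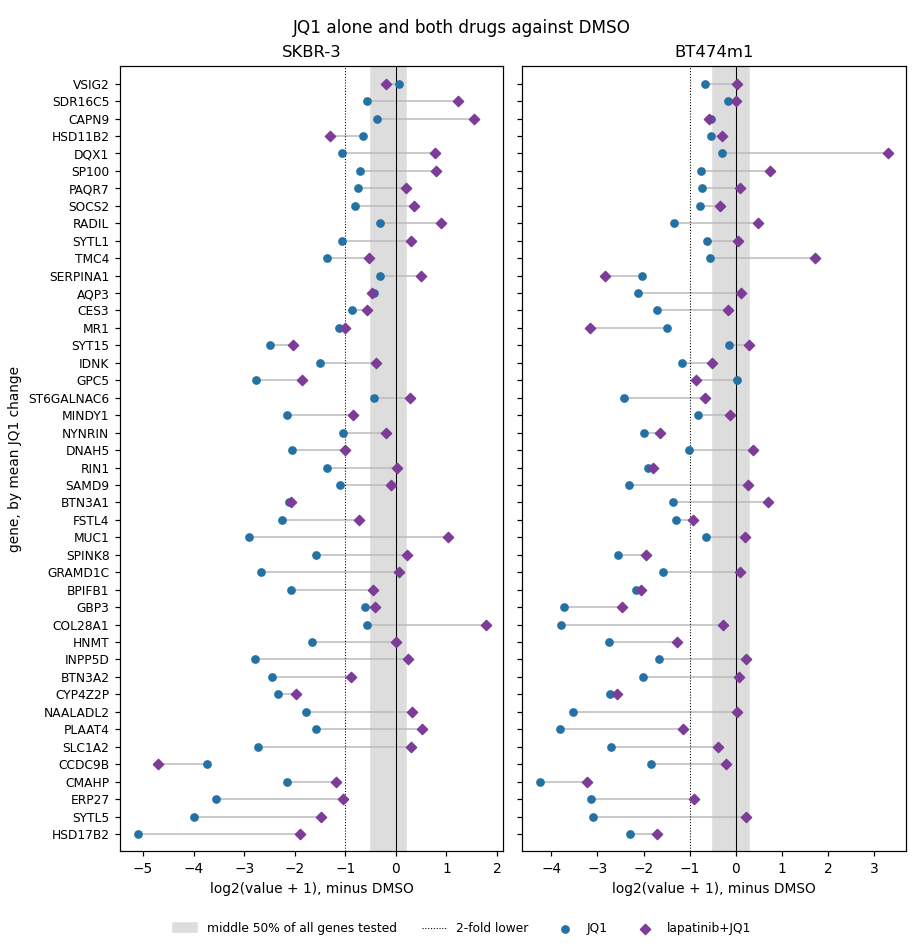
Log2(value + 1) minus DMSO for JQ1 alone (blue circles) and both drugs (purple diamonds), for 44 of the 45 genes in rows, with SKBR-3 on the left and BT474m1 on the right. The grey band holds the middle 50% of all genes tested for JQ1 alone, and the dotted line marks a 2-fold fall. In each line all but 1 of the blue circles lie left of 0, and all but 4 of the purple diamonds lie right of their circle.

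With lapatinib on top of JQ1, most of these genes were higher than with JQ1 alone. Values with both drugs were above those with JQ1 alone in 41 of 45 genes in each line, against 48.6% (SKBR-3) and 53.5% (BT474m1) of all genes tested. They were at least 2-fold above in 28 genes in SKBR-3 (9.79% of all genes tested) and 24 in BT474m1 (12.4%), and in both lines in 16 genes (3.6%). The median difference was 1.32 in SKBR-3 and 1.26 in BT474m1. The rule read the library of both drugs and favours low values in it. The exceptions in SKBR-3 were VSIG2, HSD11B2, AQP3 and CCDC9B, at differences from -0.98 to -0.05, and in BT474m1 SERPINA1, MR1, GPC5 and CAPN9, at -1.67 to -0.05.

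With both drugs the median difference from DMSO was -0.20 in SKBR-3 and -0.21 in BT474m1, beside medians of 1.71 and 1.52 with lapatinib. Single genes lay on either side: 28 of 45 in SKBR-3 were within 2-fold of DMSO, against 68.3% of all genes tested, and 30 of 45 in BT474m1, against 70.5%. Neither share exceeds that of all genes. Both drugs were below DMSO in 25 genes in each line, against 53.7% (SKBR-3) and 49.1% (BT474m1) of all genes tested. They were at least 2-fold below in 13 genes in SKBR-3 (20.8% of all genes tested) and 12 in BT474m1 (15.3%), and 4 genes were so in both lines (8.93%): CMAHP, MR1, HSD17B2 and CYP4Z2P. The values stayed at least 2-fold above DMSO for COL28A1, MUC1, SDR16C5 and CAPN9 in SKBR-3 and for 3 genes in BT474m1, among them TMC4 and DQX1, against 10.8% and 14.2% of all genes tested.

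The share of the lapatinib rise that JQ1 removed, on the log2 scale, had a median of 113% in SKBR-3 and 112% in BT474m1, where 100% is a return to DMSO. Its range was 46.5% to 555% in SKBR-3 and 32.2% to 328% for the other line. If the 2 drugs acted independently on the log2 scale, both drugs minus DMSO would equal the sum of the single changes. The median departure from that sum was -0.66 units for SKBR-3 and -0.51 for BT474m1. It was within 1 log2 unit in 30 of 45 genes in SKBR-3, against 88.5% of all genes tested, and in 35 of 45 in BT474m1, against 90.6%. The lapatinib library enters this sum and was chosen high, which lowers the departure.

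The lines share no library, so that genes chosen in one line can be read in the other. The same rule applied to SKBR-3 alone took 268 genes (1.86% of those tested), of which 199 reached 50 in lapatinib in BT474m1. There, 45 of the 199, or 22.6%, rose and fell by 2-fold as in SKBR-3, against 2.78% of all 11499 genes at that level. Their median changes in BT474m1 were 0.81 with lapatinib, -1.07 on adding JQ1 and -0.78 with JQ1 alone. Applied to BT474m1 alone, the rule took 320 genes (2.22%), 143 of them with the value in SKBR-3, and 45 of these, or 31.5%, met it there, against 2.5% of 10701 genes. Their median changes in SKBR-3 were 0.96, -1.03 and -0.77. Most genes chosen in one line thus missed the 2-fold changes in the other, though the medians kept their direction.

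JQ1 alone lowered 41.2% of the genes carried from SKBR-3 at least 2-fold in BT474m1, and 42% of those carried from BT474m1 in SKBR-3. Genes raised by lapatinib in SKBR-3 but not lowered 2-fold by adding JQ1 there were lowered by JQ1 alone in 6.51% of cases in BT474m1, and the reverse carry gave 9.2%. Genes lowered by adding JQ1 but not raised by lapatinib were lowered by JQ1 alone in the other line in 38.3% and 44.1%. The fall with JQ1 alone was thus about as frequent in genes that JQ1 lowered whether or not lapatinib raised them, and these differences were not tested.

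**Figure D3:**
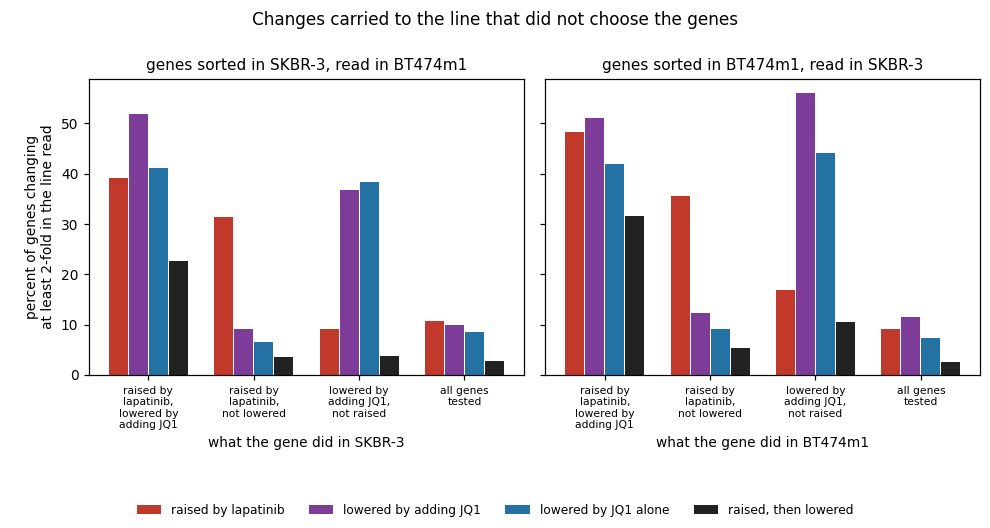
Percent of genes that changed at least 2-fold in BT474m1 (left) and SKBR-3 (right), for genes sorted by what they did in the other line. Genes raised by lapatinib and lowered by adding JQ1 in SKBR-3 met both changes in BT474m1 in 22.6% of cases, against 2.78% of all genes, and the reverse carry gave 31.5% against 2.5%.

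Over the 45 genes Pearson's r between the lines was 0.33 for the change with lapatinib and 0.19 for that with JQ1 alone, beside 0.51 and 0.46 over all 14429 genes. These are correlations across genes, which are not independent replicates. The rule fixed the direction of the lapatinib change in both lines and narrows the range of the members, so that nothing is read from the lower values.

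RefSeq promoters of 300 bases (250 before and 50 after the start of transcription, GRCh38.p14) were given for 29 of the 45 genes, 40 promoters in all. The study linked the forkhead sequence to regions that respond to lapatinib, so that its core was searched as GTAAACA or GTCAACA on both strands. It occurred in a promoter of 6 of the 29 genes (20.7%), DNAH5, GRAMD1C, MINDY1, SP100, ST6GALNAC6 and SYTL5, against 5.61% of 11389 genes tested. By promoter it was 6 of 40 (15%), against 4.13% of 16645 promoters of tested genes and 5.62% of all 35116. The 3 sequences below are of genes that rank differently in the rule's size of change, SYTL5 first among the 45, and show the match in capitals, whichever strand it reads on. The SYTL5 promoter shown is chrX:38033284-38033583, plus strand, GRAMD1C is chr3:113897250-113897549, plus strand, and the downstream SP100 promoter is chr2:230416506-230416805, plus strand. SYTL5 has another listed promoter upstream, chrX:38006303-38006602, without a match. The SYTL5 and GRAMD1C promoters shown lie inside the span of their gene. SP100, MINDY1 and ST6GALNAC6 likewise have listed promoters without a match. Which start these cells use was not tested.
SYTL5: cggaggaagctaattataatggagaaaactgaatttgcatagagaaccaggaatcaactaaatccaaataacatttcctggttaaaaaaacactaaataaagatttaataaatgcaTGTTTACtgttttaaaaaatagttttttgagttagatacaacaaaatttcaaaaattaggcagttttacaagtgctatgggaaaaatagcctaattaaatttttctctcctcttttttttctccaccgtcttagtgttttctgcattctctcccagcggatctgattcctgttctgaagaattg
GRAMD1C: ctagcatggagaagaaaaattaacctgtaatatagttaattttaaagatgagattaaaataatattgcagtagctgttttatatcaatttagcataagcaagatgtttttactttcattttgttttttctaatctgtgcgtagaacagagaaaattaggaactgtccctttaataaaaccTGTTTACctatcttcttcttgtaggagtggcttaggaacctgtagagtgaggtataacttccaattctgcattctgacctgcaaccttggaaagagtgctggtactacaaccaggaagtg
SP100: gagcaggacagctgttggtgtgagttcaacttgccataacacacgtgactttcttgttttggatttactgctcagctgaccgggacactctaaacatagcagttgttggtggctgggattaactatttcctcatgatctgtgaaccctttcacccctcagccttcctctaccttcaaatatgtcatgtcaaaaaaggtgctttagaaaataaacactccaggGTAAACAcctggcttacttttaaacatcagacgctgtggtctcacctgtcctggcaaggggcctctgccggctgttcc

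Positions are counted from the start of transcription that belongs to the promoter shown. The match begins 134 bases before that start in SYTL5 and 70 bases before it in GRAMD1C, both on the minus strand. In SP100 it begins 28 bases before the start. GC content was 31% in SYTL5 and 34% in GRAMD1C, and 47% in SP100. The AP-1 sequence TGAGTCA was also found in 6 of 29 genes (20.7%, DNAH5, GBP3, HNMT, SP100, SPINK8 and SYTL1), against 4.89% of genes tested, and in DNAH5 it overlaps the forkhead match. TATAAA was found in 7 (24.1%, among them MUC1, AQP3 and BTN3A2), against 9.08%.

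GGGCGG, read by SP1 and KLF factors, was in 48.3% against 75.2%, CCAAT in 31% against 42.9%, the E-box CACGTG in 3.45% against 12.4%, and CCGGAAGT, of ETS factors, in 0 of 29 against 9.36%. AGATAA, of GATA factors, was in 10.3% (3 of 29 genes) against 7.96%, and TGACGTCA, of CREB factors, in 3.45% against 3.67%. TTCCNGGAA, of STAT factors, was in 0 of 29 against 1.58%, the full estrogen response element in none against 0.0263%, and the steroid response element in none against 0.36%. Base composition moved with these shares: 40% of the 40 promoters had a GC content below 50%, against 13% of promoters of tested genes, and the median number of CpG pairs was 8 against 24. Its part in the motif shares was not tested. A match of letters does not show that a factor binds there, and no match was sought outside these windows.

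**Figure D4:**
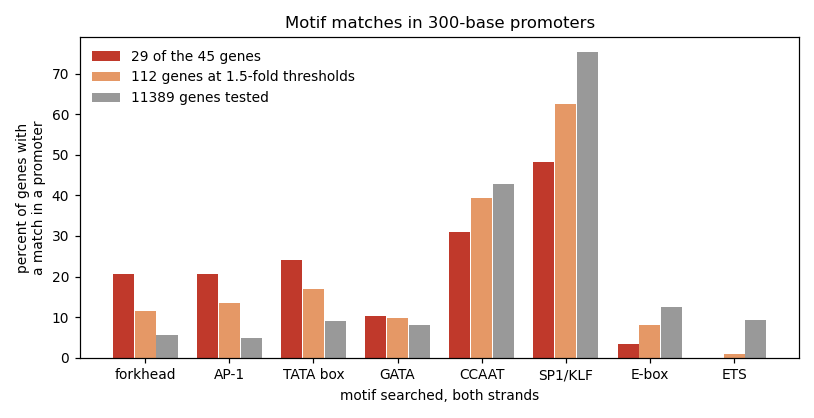
Percent of genes with at least 1 match in a 300-base promoter, both strands, for 29 of the 45 genes (red), the 112 genes of the same rule at 1.5-fold thresholds (orange) and all 11389 genes tested with a promoter (grey). The forkhead, AP-1 and TATA sequences are more frequent in the red bars and SP1, E-box and ETS less, with the orange bars between them.

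By role, 44 of the genes were sorted after their values were seen into vesicle traffic (4), transporters and channels (3), surface and secreted proteins (8), immune-linked genes (9), enzymes and lipid or steroid handling (13) and others (7). The sorting was by hand, and some genes would go in several groups, as PLAAT4 would. Medians over so few genes are descriptions.

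Among genes of vesicle traffic, SYTL5 ranked first of all 45 by the smallest of the 4 changes that the rule reads (2.61). It encodes a synaptotagmin-like protein that tethers vesicles to membranes through Rab27, lies on chrX:37888915-38128820 and holds the forkhead match shown above. The SKBR-3 libraries gave 25.1 in DMSO, 158 in lapatinib, 0.644 in JQ1 and 8.25 in the combination. BT474m1 gave 209.8, 1893, 23.7 and 245 in the same order. Lapatinib was the highest and JQ1 the lowest library in each line, and the change with JQ1 alone was -3.99 log2 units in SKBR-3, from 35 reads to 1 (interval -10.62 to -2.71), and -3.10 in BT474m1 (interval -3.60 to -2.72).

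SYTL1, its relative, closed the list: both drugs minus lapatinib was -1.04 in SKBR-3 and just past the threshold of -1 in BT474m1, after rises of 1.33 and 1.05. Its counting intervals of the fall ran from -1.21 to -0.88 and from -1.14 to -0.87, so that counting error alone spans the threshold. SYT15, a synaptotagmin, stood at 1495, 3915, 268 and 362 in SKBR-3 and at 86, 221, 77.3 and 105 in BT474m1, in the order DMSO, lapatinib, JQ1, both drugs. The change with JQ1 alone was -2.48 for SKBR-3 and -0.15 for BT474m1. A near-identical copy of this gene exists and could share its reads. RIN1, which links Ras to the activation of Rab5, was lowered at least 2-fold by JQ1 alone in both lines, at -1.36 and -1.91.

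Of 16 synaptotagmins and synaptotagmin-like genes tested, 4 rose with lapatinib in both lines, SYT15, SYTL1, SYTL4 and SYTL5, against 4.39% of all genes, and 3 of those met the whole rule, against 0.312%. Membership is the rule's own outcome, and the list was chosen with earlier results of these data known. The counts are also small, so that nothing is read from them. SYTL4 rose from 497 to 1469 in SKBR-3 and was at 1516 with both drugs. In BT474m1 it was at 254 in DMSO, 611 in lapatinib and 407 with both. It is thus a lapatinib-raised relative that JQ1 did not bring down 2-fold in either line.

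The transporters were led by SLC1A2, a glutamate transporter best known from astrocytes. It was at 43.7 in DMSO, 283 in lapatinib, 5.8 in JQ1 and 53.7 with both drugs in SKBR-3, and at 24.5, 229.5, 2.9 and 18.7 in BT474m1. The lines were alike in the changes: JQ1 alone changed it by -2.72 and -2.71, and with both drugs it was within 2-fold of DMSO in each line. It was the only member among 281 solute carriers tested, of which 16 rose with lapatinib in both lines, near the shares of 0.312% and 4.39% over all genes tested.

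TMC4, a channel-like membrane protein, was at 36.5, 189.9, 13.5 and 24.8 in SKBR-3 and at 14.1, 345, 9.18 and 48.4 in BT474m1. It had one of the steepest rises with lapatinib, 4.51 log2 units in BT474m1, and stayed 1.71 above DMSO there when JQ1 was added. AQP3, the aquaglyceroporin of epithelia, was at 1655, 3549, 1227 and 1189 in SKBR-3 and at 62.2, 241, 13.5 and 67.6 in BT474m1. The JQ1 library stood close to DMSO in SKBR-3 (-0.43) and well below it in BT474m1 (-2.12).

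The surface and secreted proteins had median changes in lapatinib of 2.50 in SKBR-3 and 1.39 in BT474m1. MUC1, the cell-surface mucin of glandular epithelia, was at 444 in DMSO, 4645 in lapatinib, 58.5 in JQ1 and 909 in the combination in SKBR-3. BT474m1 gave 510.1, 1314, 324 and 581. Untreated values were close in the lines, yet lapatinib raised it 10.5-fold in SKBR-3 and 2.58-fold in BT474m1, and JQ1 alone changed it by -2.90 (interval -3.26 to -2.60) and -0.65 (interval -0.80 to -0.52). The difference was not tested across cultures.

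SERPINA1, the protease inhibitor alpha-1-antitrypsin and a known estrogen target, was at 17.2, 116, 13.5 and 24.8 in SKBR-3. In BT474m1, the line with estrogen receptor, it was at 403, 1091, 97.6 and 55.4. With JQ1 alone the change was -0.32 for SKBR-3 and -2.03 for BT474m1, and in BT474m1 both drugs were lower than either drug alone. It was the only member of 25 tested genes of estrogen and progesterone receptors and their targets, 3 of which rose with lapatinib in both lines, beside 0.312% and 4.39% of all genes tested, and these counts are too small to read.

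BPIFB1, a secreted protein of airway and glandular epithelia, was at 25.1, 178, 5.15 and 17.9 in SKBR-3 and at 449.8, 1204, 99 and 108 in BT474m1. Levels in BT474m1 were higher in every treatment, and JQ1 alone changed it by -2.08 and -2.17. SPINK8, a Kazal-type protease inhibitor, was also lowered at least 2-fold by JQ1 alone in both lines (-1.58 and -2.55), and so was FSTL4, a follistatin-like protein (-2.25 and -1.29).

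COL28A1, a collagen, had the largest rise with lapatinib in SKBR-3 of the 45 genes. It was at 4.29, 84.2, 2.58 and 17.2 there and at 19.3, 181, 0.483 and 15.7 in BT474m1. In BT474m1 JQ1 left 1 read of 41, a change of -3.78 (interval -10.66 to -2.76). In SKBR-3 the change was -0.57, from 6 reads to 4 (interval -3.01 to 1.34). GPC5 was at 112, 559, 15.5 and 30.3 in SKBR-3 and 28.3, 65.7, 29 and 15.2 in BT474m1. GPC5 thus fell with JQ1 alone in SKBR-3 and not in BT474m1, while the COL28A1 intervals of the lines overlap. Neither difference between the lines was tested.

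**Figure D5:**
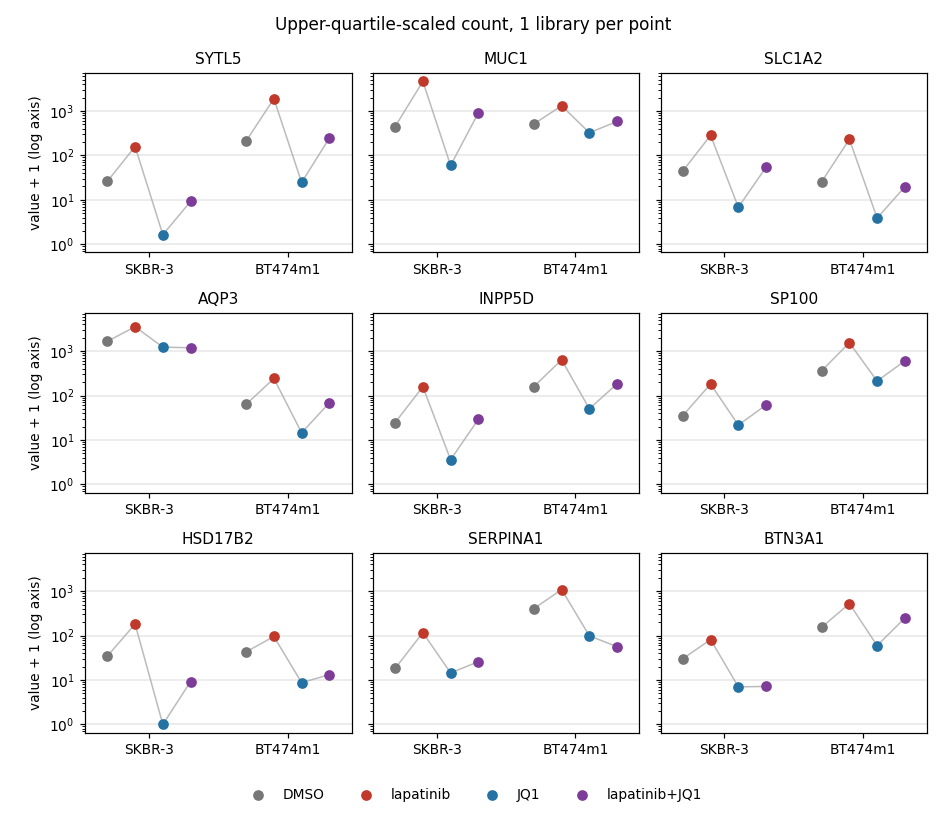
Value + 1 (log axis) of 9 of the 45 genes in each of the 8 libraries, 1 library per point, in the order DMSO, lapatinib, JQ1 and both drugs within each line. Lapatinib is the highest point in every panel and JQ1 the lowest in all but AQP3 in SKBR-3 and SERPINA1 in BT474m1, where both drugs together are lowest.

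The immune-linked genes had median changes of -1.13 (SKBR-3) and -1.66 (BT474m1) with JQ1 alone, and 6 and 7 of 9 fell at least 2-fold, against 31 of the 45 genes in each line and 11.8% of all genes tested. The group is thus near the share of the 45. The leukocyte markers PTPRC, CD3E and LST1 were at or near 0. CD68 went from 178 in DMSO to 407 in lapatinib for SKBR-3, and in BT474m1 from 11.8 to 27.7. Several of these genes answer to interferon in other settings. Of the 19 tested genes of the interferon response list, 0 were members and 1, IRF9, rose with lapatinib in both lines, which is near the shares over all genes (0.312% and 4.39%).

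BTN3A1 and BTN3A2 encode butyrophilins that present phosphoantigen signals to gamma-delta T cells and lie 24 kb apart on chromosome 6. BTN3A1 was at 29.3, 80.5, 6.02 and 6.18 in SKBR-3 and at 153, 524, 58.7 and 248 in BT474m1. BTN3A2 was at 59.8, 150.1, 10.1 and 31.7 and at 114, 419, 27.2 and 119.5. JQ1 lowered both in both lines, and with both drugs BTN3A1 lay at its JQ1 level in SKBR-3 but above DMSO in BT474m1.

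BTN3A3, the third gene of the cluster, was at 4.73, 15.3, 0 and 4.77 in SKBR-3 and at 45.3, 149.6, 2.97 and 25.5 in BT474m1. It missed the rule only by its low value in lapatinib in SKBR-3. The 3 genes are close copies, so that reads may have been divided between them. Of their relatives, BTN2A1 was at 282 in DMSO and 181 in lapatinib in SKBR-3 and at 337 and 320.2 in BT474m1. BTN2A2 was at 21.1 and 13.1 in SKBR-3 and at 78.1 and 133 in BT474m1, where lapatinib changed it by 0.77 and adding JQ1 by -0.68. The pseudogene BTN2A3P was at 4.29 and 0.766 in SKBR-3, and in BT474m1 it reached 32.5 in lapatinib, changes of 1.56 with lapatinib and -0.50 on adding JQ1.

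SP100, a component of PML nuclear bodies with the forkhead match shown above, was at 34.4, 181, 20.6 and 60.5 in SKBR-3 and at 359, 1546, 211 and 602 in BT474m1. JQ1 alone lowered it less than 2-fold in each line, and with both drugs it stayed above DMSO in each, by 0.80 and 0.74. SOCS2, an inhibitor of cytokine and growth hormone signalling, behaved similarly with JQ1 alone, at -0.81 and -0.78. It was at 124, 455, 70.2 and 158 in SKBR-3 and at 373, 1272, 216 and 294 in BT474m1.

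INPP5D, the phosphatase SHIP1 that removes a phosphate from PIP3 in blood cells, was at 23.6, 157, 2.58 and 28.2 in SKBR-3 and at 158, 637, 49.3 and 183 in BT474m1. Both drugs held it within 2-fold of DMSO in each line. MR1, which shows microbial vitamin B metabolites to T cells, was at 80.2, 239.7, 36.1 and 39.2 and at 23.6, 64.5, 7.73 and 1.75. In BT474m1 it was the only one of the 45 genes for which both drugs lay at least 2-fold below JQ1 (7.27% of all genes tested), at -1.67 (interval -4.56 to -0.34) and 3 reads.

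GBP3, an interferon-inducible GTPase, was at 42.2, 186, 27.3 and 31.2 in SKBR-3 and at 235, 687, 16.9 and 42 in BT474m1. JQ1 changed it by -0.61 and -3.72, the widest gap between the lines within the group. SAMD9, an antiviral factor, was at 95.9, 316, 43.8 and 90.1 and at 23.1, 131, 3.86 and 28, with both drugs close to DMSO in each line. PLAAT4, a retinoid-induced phospholipase, was lower in JQ1, by a change of -1.57 in SKBR-3, and went from 71 reads to 3 in BT474m1 (-3.82, interval -6.84 to -2.92).

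Among the enzymes, 8 of 13 in SKBR-3 and 10 of 13 in BT474m1 fell at least 2-fold with JQ1 alone, near the 31 of 45 over the whole set (11.8% of all genes tested), and the medians were -1.65 and -2.30. HSD17B2, which oxidises estradiol and testosterone to their less active ketones, was at 33.6, 181, 0 and 8.25 in SKBR-3. With 0 reads in JQ1 it was at least 17.4-fold lower than in DMSO, counted against a floor of 3 reads in that library, and the median over the 45 genes does not move with the gene at that bound. In BT474m1 it was at 42, 94.6, 7.73 and 12.2, a change of -2.30 with JQ1. HSD11B2, which inactivates cortisol, was at 109, 299, 69.6 and 43.3 and at 53.3, 121, 36.2 and 43.1, with smaller changes with JQ1 alone, -0.64 and -0.54.

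Of 11 HSD17B genes tested, 2 rose with lapatinib in both lines, against 4.39% of all genes tested, a count too small to read. HSD17B14, the other one, had values of 19.9 or less in every library and missed the value minimum. The membrane progesterone receptor PAQR7 was at 292, 896, 173 and 335 in SKBR-3 and at 53.3, 138, 31.4 and 57.1 in BT474m1. SDR16C5, a retinol dehydrogenase, was at 10, 52.8, 6.44 and 24.8 and at 904, 2393, 796 and 906. In PAQR7 and SDR16C5 JQ1 alone changed the level less than 2-fold in each line.

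CMAHP is the human remnant of the enzyme that makes N-glycolylneuraminic acid. It was at 784, 2495, 175 and 342 in SKBR-3 and at 211, 696, 10.1 and 21.6 in BT474m1, and JQ1 alone changed it by -2.16 and -4.25. Annotations differ on whether it overlaps CARMIL1 on the opposite strand: its longer GENCODE span does and its RefSeq span does not. CARMIL1 was at 1956, 2998, 1448 and 1824 in SKBR-3 and at 1159, 1219.9, 615 and 665 in BT474m1. CARMIL1 changed by less than 2-fold in each of these steps, and it is uncertain whether counting used strand.

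CYP4Z2P, a pseudogene nearly identical to the breast-expressed fatty acid hydroxylase CYP4Z1, was at 101, 206, 19.3 and 25 in SKBR-3 and at 95.3, 209, 13.5 and 15.2 in BT474m1. Its values were close between the lines, whereas CYP4Z1 was at 101, 153, 5.17 and 6.64 in SKBR-3 and at 7.04 or less in BT474m1. Reads of the pair can be divided between them, which makes each value uncertain.

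NAALADL2, a peptidase-like protein, was at 42.2, 312, 11.6 and 53 in SKBR-3 and at 171, 735, 14 and 174 in BT474m1, with both drugs near DMSO in each line. GRAMD1C, a carrier of cholesterol between membranes whose promoter is shown above, was at 235, 659, 36.1 and 244 and at 132, 572, 43.5 and 139.9. It returned to its DMSO level with both drugs, at differences of 0.06 and 0.08, while JQ1 alone changed it by -2.67 and -1.58.

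HNMT, the enzyme that methylates histamine, was at 203, 749, 63.8 and 204 in SKBR-3 and at 523, 1117, 76.3 and 216 in BT474m1. ERP27, a protein of the endoplasmic reticulum, fell by more than 3 log2 units with JQ1 alone in each line, at -3.55 and -3.13. Both were well below DMSO in JQ1 in both lines. The carboxylesterase CES3 (-0.86 and -1.71), the gluconokinase IDNK (-1.51 and -1.17) and the sialyltransferase ST6GALNAC6 (-0.44 and -2.42) were lower with JQ1 in both lines by differing amounts. CES3 and HSD11B2 lie 455 kb apart on chromosome 16.

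Of the remaining genes, DQX1, a helicase-like protein, was at 20, 105, 9.02 and 35.1 in SKBR-3 and at 1.41, 69.3, 0.966 and 22.7 in BT474m1. In BT474m1 it rose from 3 reads in DMSO, a change of 4.86 (interval 4.03 to 7.91), and held 3.30 of that with both drugs. DNAH5, a heavy chain of ciliary dynein, and MINDY1, a deubiquitinase, carry the forkhead match in a promoter, and JQ1 alone changed them by -2.05 and -2.16 in SKBR-3 and by -1.01 and -0.82 in BT474m1. NYNRIN was lowered at least 2-fold by JQ1 alone in both lines (-1.04 and -1.99).

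CCDC9B was at 293, 602, 21.3 and 10.3 in SKBR-3 and at 353, 1016, 98.1 and 306 in BT474m1. The lapatinib rise was 1.03 in SKBR-3, near the threshold, and the change on adding JQ1 was -5.74, the largest fall of the 45 genes in that line. CAPN9, a calpain of the digestive tract, was at 7.87, 97.2, 5.8 and 24.8 in SKBR-3 and at 306, 636, 211 and 203 in BT474m1. RADIL, an effector of Rap, overlaps PAPOLB on the same strand and was at 11.5, 55.1, 9.02 and 22 and at 46.7, 228, 17.9 and 65.9.

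Over all genes tested, 4.39% rose at least 2-fold with lapatinib in both lines and 0.312% met the whole rule, and counts of 0 or 1 member in lists of this size are too small to read. Of 31 receptor tyrosine kinases tested, ERBB3, INSR, LTK and MERTK rose at least 2-fold with lapatinib in both lines and none of the 4 was lowered 2-fold by adding JQ1 in both. Of 21 FOXO targets, 8 rose in both lines and none was a member. MUC1 was the only member of 17 breast secretory products tested and ST6GALNAC6 of 85 glycosyltransferases. No luminal transcription factor of the 22 tested was a member.

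The genes just outside the rule were close to those just inside. With a score defined as the smallest of the 4 changes the rule reads, the lowest members were IDNK (1.03), CCDC9B (1.03), CYP4Z2P (1.02), NYNRIN (1.01) and SYTL1, at the threshold itself. Among genes at 50 or more in lapatinib in both lines, the nearest non-members were CASKIN1 (0.990), EEF1AKMT3 (0.985), KLHL38 (0.975), MECOM (0.973) and ATG9B (0.964), and 14 non-members scored 0.9 or more. Another 70 genes met the fold changes and missed that value minimum. MECOM, a zinc finger transcription factor, was at 447, 887, 189 and 404 in SKBR-3 and at 25, 50, 4.35 and 7.58 in BT474m1. The boundary thus falls within a continuous range of changes.

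The mean profile of the 45 genes, with each line centred on its own mean, was 0.04, 1.98, -1.67 and -0.35 log2 units in SKBR-3 and 0.11, 1.90, -1.64 and -0.38 in BT474m1, in the order DMSO, lapatinib, JQ1 and both drugs. Over the 8 libraries the members' correlations with it ran from 0.794 (MR1) to 0.987 (IDNK), which the rule favours. The non-members most like it were STX4 (r = 0.993), ACSM3 (0.993), PURA (0.991), MX2 (0.991) and CLASP1 (0.990). STX4, PURA and CLASP1 had small changes, a rise with lapatinib of 0.29 log2 units or less. STX4 and PURA ran in the order lapatinib, DMSO, both drugs, JQ1 in each line. CLASP1 did so in SKBR-3, but in BT474m1 it was at 1744 in DMSO and 1762 with both drugs. ACSM3, an acyl-CoA synthetase, moved as much as members did, from 12.2 to 27.5, 5.15 and 9.49 in SKBR-3 and from 77.4 to 168, 42.8 and 78.8 in BT474m1, and missed the value minimum in SKBR-3.

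The 45 genes were spread over 17 chromosomes, among the 44 with a RefSeq position, and 42 of those are protein-coding. Their median span was 22.9 kb, from 4.78 kb for VSIG2 to 1469 kb for GPC5, against 29.5 kb for all genes tested. Only the pairs named above lay within 500 kb of each other.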

How the data were processed

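RNA of 8 libraries, 1 per group, was grouped by the labels. Each deposited table gives 1 signal value a gene, a read count estimated by RSEM that the authors rescaled so that the upper quartile is 1000. The submitters' processing notes name hg19, RSEM, Picard 1.88 and SAMtools 1.2, whereas the study's methods name hg38, STAR and Salmon, and 2 library kits are named, so that build, aligner and strand are uncertain. Computations used scipy 1.17.1, pandas 2.3.3 and numpy 2.4.6 under Python 3.11.15. Of 20531 genes, 14429 that reached 10 in any library were kept. Changes are differences of log2(value + 1). The value of 1 read was the step between values, 0.471 to 0.766, and 83.8% to 85.2% of values above 0 were whole reads within 0.02, and the floor of 3 reads was 1.41 to 2.3 units. Positions and promoters are RefSeq, GRCh38.p14, and locate genes, not reads, and overlaps between genes were read from GENCODE. The treatment time is that of the labels. The study's methods name a shorter one, while one of its figure legends gives 48 h for RNA of SKBR-3 in DMSO or lapatinib. The members, gene lists and rules were chosen with earlier results of these data known. Genes were named by rank of change, level in lapatinib, JQ1 response, list membership and nearness to the threshold, and the rest of the 45 were added after their values were seen. The values of 1 of the 45 genes are not reported here, though it is in the counts and medians. The code of the rule was run on simulated counts with planted changes, which checks the code alone and not the genes chosen here.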

Additional observations from a re-analysis of the deposited data

Results flagged for a closer look

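For 4 of the genes reported here the lines moved in opposite directions, by at least 1 log2 unit in one line and 0.5 in the other, with counting intervals that excluded no change in each line. Smaller opposite changes are not listed. Each line had 1 library per group, and the difference between the lines was not tested. Both drugs minus JQ1 was -0.98 in SKBR-3 and 1.63 in BT474m1 for CCDC9B, a difference of 2.61. Both drugs minus DMSO was -2.07 and 0.69 for BTN3A1, a difference of 2.77. It was 1.54 and -0.59 for CAPN9, a difference of -2.12, and 0.52 and -1.15 for PLAAT4, a difference of -1.67.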

How the results depend on the processing

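Of 135 values recomputed under other settings, 107 stayed the same by the measure used (within 1.5 times for counts, within the order-statistic or binomial interval of the original otherwise), 28 moved and none of those with a clear direction reversed. The intervals are taken across the chosen genes, which are not independent replicates, and are wide. Some of the values are also fixed in part by the rule, so that staying the same is a weak check. The rule took 115 genes with no value minimum, 17 at 200 or more in lapatinib, 160 at 1.5-fold and 8 at 3-fold, and 35 with a pseudocount of 10, 37 with median-of-ratios scaling and 43 with equal totals, of which 35, 37 and 41 were among the 45. At 3-fold the members are few (8), and medians and shares rest on them.

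The share of genes carried from SKBR-3 to BT474m1 moved to 30.1% at 1.5-fold and 14.3% at 3-fold. From BT474m1 to SKBR-3 it moved to 22.3% with no minimum, 23% at 200 or more and 17.4% at 3-fold. The median JQ1 change moved to -2.16 at 200 or more in SKBR-3, and to -1.03 at 1.5-fold and -2.90 at 3-fold in BT474m1. The share lowered at least 2-fold by JQ1 moved to 51.4% with a pseudocount of 10, 82.4% at 200 or more and 87.5% at 3-fold in SKBR-3, and to 51.9% at 1.5-fold and 87.5% at 3-fold in BT474m1. Both drugs minus JQ1 moved to 0.90 with a pseudocount of 10, 0.94 at 1.5-fold and 2.22 at 3-fold in SKBR-3, and to 2.45 at 3-fold in BT474m1. The departure in SKBR-3 moved to -0.90 with a pseudocount of 10, -0.96 with no minimum and -0.41 at 1.5-fold. At 3-fold in BT474m1 it moved to -0.01, both drugs minus DMSO to 0.12 and the share of the rise removed to 95.7%. Of the listed genes, 90 rose with lapatinib in both lines and 47 did with a pseudocount of 10. The cause was not tested. Chosen after seeing the data, dropping 6 genes with a copy or overlap gave a median JQ1 change of -1.37 in SKBR-3, within the interval of the original, and left it at -1.71 in BT474m1. Requiring counting intervals that exclude no change kept 45 genes, which the rule's own fold and value minimum all but ensure, so that it is no check of them.

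Scaling shifted all genes by at most 0.16 log2 units in any step. Within a line, no paired analysis was possible because each group held 1 library. A fit over both lines with the line as a block was not run: it would take the lines as replicates of a treatment, and the rule chose genes for moving alike in both. Leaving out a replicate was not possible for the same reason. Depth limits genes of few reads: the rule's value minimum leaves lapatinib libraries well covered, and intervals are widest in JQ1.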
